A study of Mus musculus with 5 samples.

Results

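BATF is a basic leucine zipper factor that pairs with JUN proteins. The pairs bind the AP-1 sequence TGACTCA, and with IRF4 or IRF8 they bind composite elements in which an IRF half-site stands beside the AP-1 sequence. PU.1 belongs to the ETS family and reads sequences around GGAA. Both are known for their part in IL-9-producing helper T (Th9) cells. The distal BATF-only summits described here are the places in a BATF ChIP-Seq list of Th9 cells where no PU.1 and no control summit lay nearby and no transcript started. Members were chosen by position, in 4 steps on the deposited lists. A BATF summit had to lie on chromosomes 1 to 19 or X, more than 1000 bp from every GENCODE M21 transcript start, and more than 500 bp from every summit of the PU.1, Input, goat Ig and rabbit Ig lists. Of 4060 BATF summits, and of 38651 in all 5 lists, 1136 met this rule.

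The series holds 5 libraries, namely PU.1, BATF, goat and rabbit control immunoglobulin (Ig) and Input, which is sheared chromatin sequenced with no antibody. All came from wild-type cells of C57/Bl6j mice aged 7 weeks. Naive CD4 T cells of spleen and lymph nodes were cultured on plates coated with antibodies to CD3 and CD28, with IL-4 (20 ng/ml), TGF-β (2 ng/ml) and an antibody that blocks IFNγ. The duration stands in the labels only in words, and the labels and the study's methods differ in the sequencer and in the number of cells used. Both specific antibodies were raised in rabbit, so rabbit Ig was their species-matched control. There were no replicates. Nothing was therefore tested between conditions, and the ranges printed beside shares are exact 95% (Clopper-Pearson) intervals for counting error only. Read totals were not available for use here, so the depth of each library is unknown.

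The members are best seen as sequence. Each line below gives 100 bases of GRCm38 (mm10), plus strand, centred on 1 summit. In the first 3 the capitals mark unbroken AC or GT runs of at least 8 bases, and in the AAAG window they mark at least 2 copies of that unit in a row. The GC-rich example has its CG steps in capitals, the masked example has none, and the last 3 have the AP-1 sequence in capitals. The set was picked to show the 3 sequence classes described below, members near Batf and on the side of Il21, and members with the sequence that BATF is known to read.
Slc35b3 upstream, AC (chr13:39163394-39163493): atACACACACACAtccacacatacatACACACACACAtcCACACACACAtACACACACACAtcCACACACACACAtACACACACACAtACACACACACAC
Itga2 intron, AC (chr13:114857932-114858031): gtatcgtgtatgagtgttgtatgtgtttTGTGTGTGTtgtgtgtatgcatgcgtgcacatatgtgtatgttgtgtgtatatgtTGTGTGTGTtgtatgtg
Jdp2 intron, AC (chr12:85613118-85613217): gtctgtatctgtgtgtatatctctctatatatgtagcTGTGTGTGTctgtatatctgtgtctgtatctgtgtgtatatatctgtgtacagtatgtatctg
nearest to Spata5, AAAG (chr3:37462577-37462676): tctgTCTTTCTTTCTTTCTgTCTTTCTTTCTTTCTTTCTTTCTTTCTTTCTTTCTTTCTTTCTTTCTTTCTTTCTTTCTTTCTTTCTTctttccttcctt
Gpc5 upstream, GC-rich (chr14:115040653-115040752): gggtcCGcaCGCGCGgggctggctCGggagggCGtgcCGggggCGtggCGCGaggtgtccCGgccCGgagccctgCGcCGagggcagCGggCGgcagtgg
Gm34302 upstream, other masked repeat (chr3:63590239-63590338): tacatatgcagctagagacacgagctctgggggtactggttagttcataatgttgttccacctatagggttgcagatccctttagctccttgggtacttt
Sgce intron, AP-1 (chr6:4716836-4716935): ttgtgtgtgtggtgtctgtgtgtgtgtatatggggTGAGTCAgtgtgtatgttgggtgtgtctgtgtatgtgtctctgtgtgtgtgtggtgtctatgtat
Irx3 downstream, AP-1 (chr8:91774977-91775076): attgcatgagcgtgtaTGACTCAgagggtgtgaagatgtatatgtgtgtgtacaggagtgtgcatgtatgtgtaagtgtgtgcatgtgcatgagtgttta
Fars2 intron nearest to Nrn1, AP-1 (chr13:36523926-36524025): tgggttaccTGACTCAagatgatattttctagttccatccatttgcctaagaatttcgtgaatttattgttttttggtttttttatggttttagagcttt

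The first 4 windows are of the most frequent class, the simple repeats, while the GC-rich and AP-1 windows stand for few members. The highest-scoring one, 202569 bp upstream of Slc35b3, is a run of AC copies broken every few bases by AT or TC. The one in an intron of Itga2, which codes for an integrin subunit, and the one in an intron of Jdp2, an AP-1 family gene next to Batf, are looser versions in which short GT runs alternate with other bases. The window nearest to Spata5 carries, almost throughout, copies of AAAG with the purines on 1 strand. The window upstream of Gpc5 is a GC-rich stretch with no masked base.

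Windows were sorted into 3 sequence classes. In a simple repeat, over 50% of the 200 bp repeated the base found at a fixed spacing of 1 to 6 bp upstream. A window was an other masked repeat when this did not hold but over 50% of it was in lower case (masked) in the reference, and otherwise unmasked. Of the 1136 members, 681 were simple repeats (59.9%, 57.03 to 62.8%), 387 were other masked repeats (34.1%) and 68 were unmasked (5.99%). In 613 members (54.0%) all 200 bases were masked. Windows 5000 bp to either side of the same members were simple repeats in only 3.13% and unmasked in 74.0% of 2269 cases. The share of simple repeats was higher still at distal BATF summits with a PU.1 summit and no control nearby (81.0% of 469). It was 62.1% at distal BATF summits near a control summit, 52.3% at distal PU.1 summits without BATF and 7.20% at distal Input summits without any of the other lists. The distal summits of the control antibodies were simple repeats in 44.9% (rabbit Ig, n = 138) and in 50 of 125 cases (goat Ig).

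**Figure D1:**
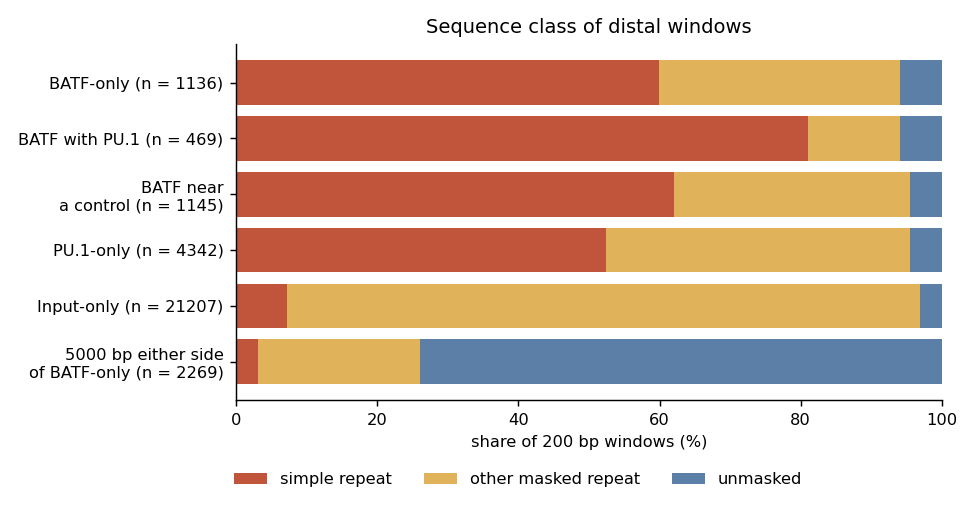
Share of 200 bp windows (horizontal axis, %) in each sequence class for distal summits of 6 sets (1 bar each, n beside its name). Simple repeats fill 59.9% of the BATF-only bar, 7.20% of the Input-only bar and 3.13% of the bar for windows 5000 bp away.

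Masked sequence was centred on the summit. Averaged over the members, the share of masked bases rose from 33.6% at 950 to 1000 bp before the summit to 90.9% in the 50 bp after it, while GC content stayed between 42.8 and 43.9% across the same 2000 bp. Masked bases in the 50 bp after the summit were as frequent in the other sets. They made up 91.6% at BATF with PU.1, 92.4% near a control, 92.4% at PU.1-only and 93.5% at Input-only summits. The median GC content of a member was 42.0%.

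AC was by far the most frequent repeat unit. It was the unit of 345 members (30.4%, 27.7 to 33.1%), against 1.01% of the windows 5000 bp away and 1.23% of Input-only summits. The share was 19.3% at PU.1-only, 22.9% (20.5 to 25.4%) at BATF summits near a control and 40.9% at BATF summits with PU.1. The interval of the members overlapped none of the others. A further 121 members (10.7%) had units in which AC alternates with AT or AG, such as ACAT (31), ACACAT (25) and ACAG (24). Units made of A and G on 1 strand came to 182 members (16.02%), led by AAAG (66), AG (39) and AAG (23), and at PU.1-only summits such purine units reached 21.1% (19.8 to 22.3%). The balance of both kinds differed between the lists, with AC ahead of purine units at BATF-only summits and about equal shares at PU.1-only summits, where the intervals overlapped. The unit AACCCT of chromosome ends was found in 3 members (0.264%), among them those near Phactr2 and Stc2. It was in 4.72% of the BATF summits near a control, in 18.8% of the rabbit Ig and in 16.8% of the goat Ig distal summits.

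**Figure D2:**
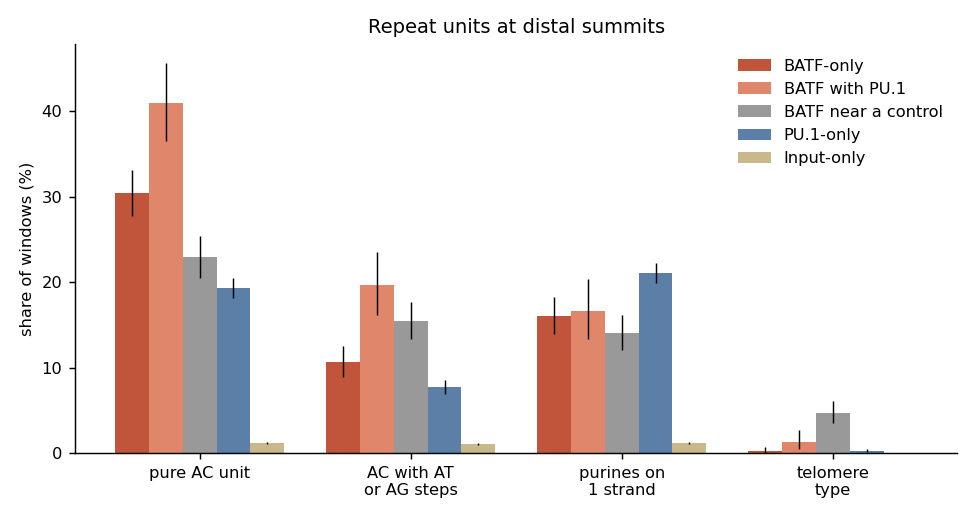
Share of windows (vertical axis, %) with each group of repeat units at distal summits of 5 sets, with exact 95% intervals for counting error. The AC bar of the BATF-only set stands at 30.4%, below BATF with PU.1 (40.9%) and above PU.1-only (19.3%), and telomere-type units stand highest in the set near a control (4.72%).

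The AC windows were not the long perfect tracts that make up classical microsatellites. In the 345 AC windows the longest unbroken run had a median of 12 bp (quartiles 10 and 15 bp), and 25 windows (7.25%, 4.74 to 10.5%) held a run of 20 bp or more. In the 23 AC windows found 5000 bp away, the median was 31 bp and 65.2% (42.7 to 83.6%) held such a run. PU.1-only AC windows were like those of the members, with a median of 12 bp and 9.19%. Bases in perfect AC tracts of at least 20 bp were scarce at the summit itself, at 0.489% in the 50 bp before it and 0.343% in the 50 bp after it, and peaked on both sides, at 1.79% from 150 to 200 bp before and 1.76% from 200 to 250 bp after. PU.1-only summits had such a dip too, with 0.252% in the 50 bp after the summit and 1.23% from 150 to 200 bp after. At BATF with PU.1 the values were 1.04% in the 50 bp after and 3.46% from 150 to 200 bp before. Of 259441 distal perfect AC tracts of at least 20 bp in the genome, 41 (0.0158%) lay within 100 bp of a member. By tract length that share was 0.0383% (30 tracts) at 20 to 29 bp, 0.0111% (9 tracts) at 30 to 39 bp, 0.00135% (1 tract) at 40 to 49 bp and 0.00429% (1 tract) at 50 to 59 bp, and none of the longer tracts had a member that near. The last 3 bins rest on fewer than 10 tracts each. How well reads place in long perfect tracts was not tested.

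**Figure D3:**
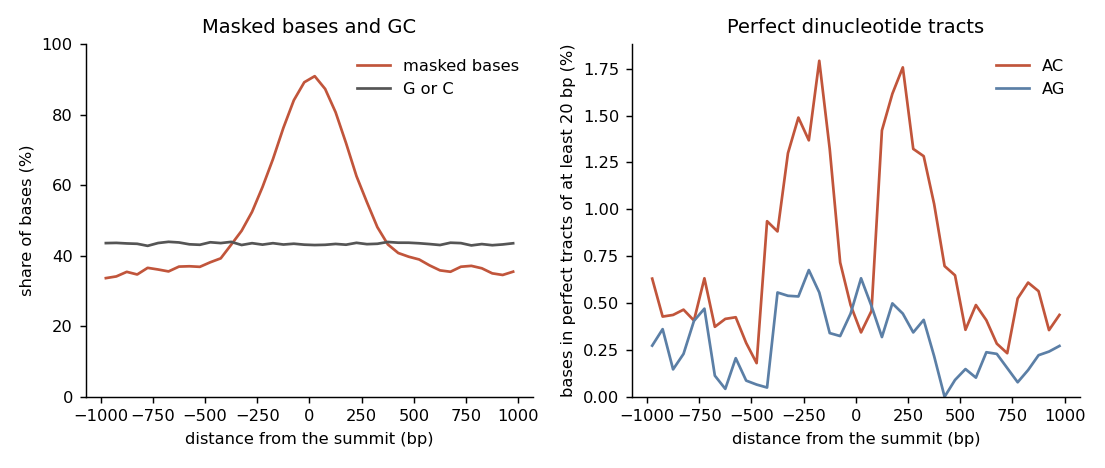
Left, share of masked bases and of G or C (%) in 50 bp bins against the distance from the summit (bp), averaged over the 1136 members. Right, share of bases in perfect AC or AG tracts of at least 20 bp. Masked bases reach 90.9% at the summit with GC flat, and perfect AC tracts dip there and peak 150 to 250 bp to either side.

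Simple repeats and other masked repeats differed in how often they recur in the genome. The share of a member's stretches of 31 bases that occur once in the reference had a median of 59.4%. This median was higher at BATF summits with PU.1 (70.6%) and in windows 5000 bp away (100%). It was lower at PU.1-only summits (44.1%), BATF summits near a control (35.3%) and a sample of 2121 Input-only summits (22.4%). For members in simple repeats the median was 84.7%, and for those in other masked repeats it was 8.24%. No unique stretch was present in 185 members (16.3%), of which 158 were other masked repeats and 19 were simple repeats. Whether the longer paired reads from such windows have 1 origin was not tested, and how reads with several origins were placed is not given in the sources used here.

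The AP-1 sequence was rare at the members. It was present, on either strand, in the 200 bp around 8 of 1136 summits (0.704%, 0.305 to 1.38%), against 80 of 2269 windows 5000 bp away (3.53%, 2.81 to 4.37%), and these intervals did not overlap. The other distal sets also had it seldom, at 1 of 469 BATF summits with PU.1, 1 of 1145 near a control, 32 of 4342 PU.1-only summits (0.737%) and 111 of 21207 Input-only summits (0.523%). With any base in the middle (TGANTCA) the share was 0.968% at the members and 5.82% in the flanking windows. Unmasked windows were 5.99% of members and 74.0% of flanks, so the pooled shares do not compare like sequence. Outside simple repeats TGACTCA was in 4 of 455 members (0.879%, 0.240 to 2.24%) and 78 of 2198 flanking windows (3.55%, 2.81 to 4.41%). Of these, 68 members and 1678 flanking windows were unmasked, and 0 and 66 of them held it. In simple repeats it was in 4 of 681 members (0.587%) and 2 of 71 flanking windows (2.82%). Within simple repeats and within unmasked windows the intervals overlapped. From 1900 bp before to 1900 bp after the members, the central 200 bp held 9 AP-1 sequences, and the other 18 bins of the same width held between 25 and 43, with a median of 32.5. A dip at the centre was present around PU.1-only summits (40 against a median of 137) and Input-only summits (114 against 407) too. Counted from the genome, 393844 AP-1 sequences lay more than 1000 bp from a transcript start, and 9 of them had a member within 100 bp. The sequence that BATF is known to read was thus no more frequent at the members than beside them, and they are called summits here and not binding sites.

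**Figure D4:**
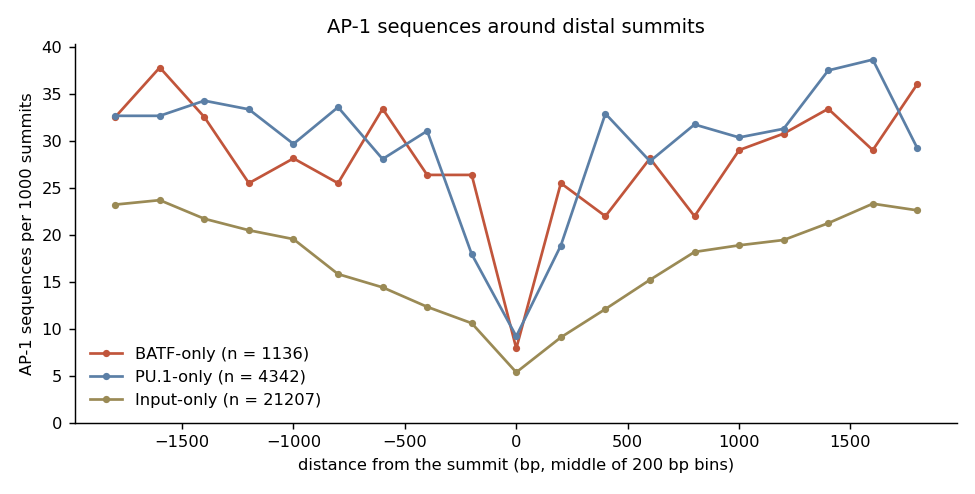
AP-1 sequences per 1000 summits (vertical axis) in bins of 200 bp against the distance from the summit (bp, middle of each bin) for 3 sets of distal summits. All 3 lines are lowest at the summit, where the 1136 BATF-only summits had 9 sequences against 25 to 43 in the other bins.

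The AP-1/IRF composite, with GAAA directly before TGACTCA or TGAGTCA or with TTTC 4 bp before either, was found at 0 of 1136 members, which allows a share of up to 0.324%, and in 3 of the 2269 flanking windows. Of the 8 members with an AP-1 sequence, those at Sgce, Irx3 and Nrn1 are printed above and had it within 50 bp of the summit. So did those at Sri and Kctd14, each at 48 bp. Sgce codes for epsilon-sarcoglycan, and its intronic member (score 4.55) had the sequence 12 bp from the summit, inside a GT-rich stretch. The member 26888 bp downstream of the Irx3 start, a homeobox gene, had it at 31 bp and the one in Fars2, nearest to Nrn1, at 38 bp. The others lay in introns of Sri, Snx31 and Chst4, 1927 bp upstream of Kctd14 and between genes nearest to Cox7c. All 8 windows were over 50% masked, and their scores ran from 3.26 to 5.22.

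Sequences of other factors were counted in the same windows. The PU.1 sequence GAGGAAGT was present in 7 members (0.616%, 0.248 to 1.27%) against 1.19% (0.786 to 1.73%) of the flanking windows, with overlapping intervals. It was as rare at PU.1-only summits (0.530%) and at BATF summits with PU.1 (0.426%). The CRE sequence TGACGTCA, which some bZIP dimers bind, was present in 1 member. TTC and GAA with 3 or 4 bp between, the STAT sequence, was in 4.93% against 11.9%. AGATAA, for GATA factors, was in 5.37% against 11.99%, and GGAAAA, for NFAT, in 8.45% against 19.2%. BATF summits with PU.1 and those near a control were also low for STAT (2.35% and 4.54%) and GATA (3.20% and 4.72%). PU.1-only summits had 8.06% and 6.10%, and Input-only summits 14.5% and 13.9%. The NFAT share was 4.90% at BATF with PU.1, 11.7% near a control, 13.3% at PU.1-only and 33.1% at Input-only summits. Outside simple repeats the STAT share was 11.6% at the members and 12.2% in the flanks, whereas GATA (5.71% against 12.2%) and NFAT (8.79% against 19.4%) stayed apart. There NFAT was in 4.49% of BATF with PU.1, 26.0% near a control and 16.9% of PU.1-only summits. GAAA repeated after 2 bp, as IRF dimers read it, was in 58 members (5.11% against 2.60%), and 44 of them were simple repeats. This pair was in 8.01% of PU.1-only and 6.89% of Input-only summits, and in 4.05% of BATF with PU.1 and 4.10% near a control. TGTGGT, the RUNX sequence, which GT-rich repeats can hold, was in 18.5% against 13.6%. The T-rich motif that the study drew from its IRF8 peaks was in 528 members (46.5%) against 6.48% of the flanks. It was in 69.3% of the members in simple repeats and 12.3% of the others. The same motif was in 59.7% of BATF summits with PU.1, 42.0% of PU.1-only and 69.6% of PU.1-only simple repeats. It was in 35.5% of BATF summits near a control, 53.5% of the 71 simple repeats in the flanks and 36.2% of Input-only simple repeats. A match of letters describes the window and not a bound factor.

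Scores were low and clustered. The score, a number from the peak caller whose meaning the sources used here do not state, ran from 1.32 to 12.8 with a median of 3.92 (quartiles 2.99 and 4.94), below the median of the whole BATF list (4.74). It passed 5 in 266 members (23.4%) and 10 in 6. Only 124 different values occurred, and 66 members shared the value 5.22. BATF summits with PU.1 had a median of 4.21 and a highest value of 17.4, and those near a control a median of 4.94 and a highest value of 429. Simple repeats made up 68.0% (61.5 to 74.0%) of the 228 members with the highest scores and 52.9% (46.1 to 59.5%) of the 227 with the lowest. Other masked repeats went the other way, from 23.2% to 42.3%. AC units went from 35.1% to 26.0% with overlapping intervals, and AP-1 sequences were in 1, 2, 4, 1 and 0 members from the highest to the lowest of 5 such groups.

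**Figure D5:**
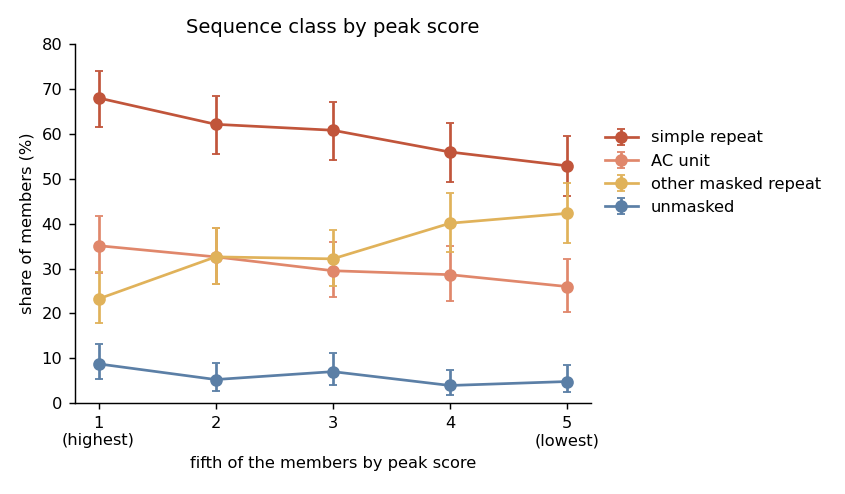
Share of members (vertical axis, %) in each sequence class in 5 groups by peak score, from highest to lowest (227 or 228 members each), with exact 95% intervals for counting error. Simple repeats fall from 68.0% to 52.9% and other masked repeats rise from 23.2% to 42.3%.

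The 10 highest-scoring members were of several kinds. Members near Slc35b3 (12.8), in Itga2 (10.6) and upstream of Svil (9.46) were AC repeats, and the one in an intron of Phactr2 (12.4), a gene for a phosphatase and actin regulator, was of the telomere type. Members in exons of Marcks (12.2), whose product is a substrate of protein kinase C, and of Evx2 (10.9), a homeobox gene, lay in GC-rich repeats of CCG with 82.5% and 81.0% GC. Neither lay in an annotated UTR. Unmasked GC-rich members were the ones 51547 bp upstream of Gpc5 (10.5) and 116474 bp downstream of the Smad2 start (9.93). Those upstream of Hibadh (9.87) and of the predicted gene Gm34302 (9.74) were other masked repeats.

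GC-rich members stood apart from the rest in place and score. At least 65% GC was reached by 29 members, of which 24 were unmasked. Their median distance to a transcript start was 3375 bp, against 15434 bp for all members, and 18 lay within 5000 bp of a start. Of the 29, 11 lay in exons, which is 11 of the 20 members in exons. Their median score was 5.40, against 3.91 for the other 1107 members. They included members in Yy1 (6.64), a widely expressed zinc-finger regulator, in Rarg (6.60), a retinoic acid receptor, in an exon of Gfi1 (6.28), a transcriptional repressor of blood cells, in an exon of Zfpm1 (6.64), a cofactor of GATA factors, in Usp9x (5.40), a deubiquitinase, and 4984 bp downstream of the start of Hes1 (2.99), a target of Notch. The 24 unmasked ones were 2.11% of members. Such windows were 3.41% of BATF summits with PU.1, 0.783% of PU.1-only and 0.437% of BATF summits near a control. At BATF with PU.1, all unmasked windows had a median score of 5.16, against 4.21 for that whole set. None of the 68 unmasked members held an AP-1 sequence, which allows a share of up to 5.28%. Of the unmasked windows 5000 bp away, 66 of 1678 (3.93%) held it, a share inside that range.

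By place, 535 members lay inside an annotated gene (47.1%, 44.2 to 50.05%), of which 515 in introns and 20 in exons, and 601 lay between genes. The share inside genes was 47.6% in the windows 5000 bp away, 44.5% at PU.1-only and 32.9% (32.2 to 33.5%) at Input-only summits. A transcript start lay 1000 to 5000 bp away for 21.6% of members, 10000 to 50000 bp away for 44.0% and over 100000 bp away for 6.87%. Members were thinly spread, with 0.431 per Mb, from 0.251 per Mb on chromosome X to 0.599 on chromosome 5, and 8 neighbouring pairs lay within 10000 bp. Of 554 genes that held a member, 26 held more than 1, and 6 held 3 or more. These were Gm20388 with 4, and 9330182L06Rik, Grin2a, Il1rapl1, Sdk1 and Sox5 with 3 each. Their lengths ran from 215708 to 4434882 bp.

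The steps of the rule left few summits near its limits. Of the 1606 control-free distal BATF summits, 314 had a PU.1 summit within 100 bp, 6 at 300 to 400 bp, 6 at 400 to 500 bp and 1 at 500 to 600 bp, while 547 had none within 100000 bp. An Input summit lay 500 to 1000 bp from 12 members, and a goat or rabbit Ig summit from 0. The median distance of a member was 95646 bp to PU.1 and 45079 bp to Input. At the other limit, 4 members lay 1000 to 1100 bp from a transcript start, and 11 summits at 900 to 1000 bp would otherwise have been members. Since the rule fixed these distances, they describe the members and test nothing.

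Genes of helper T cells were looked up in 7 lists with 226 genes. Over all genes, 4.72% of 21681 protein-coding genes were the nearest to at least 1 member, and 8.98% had a member within 100000 bp of a start. Of the 226 list genes, 26 (11.5%) were nearest to a member and 40 (17.7%) had one within 100000 bp. Genes with more sequence around them have more room for members. Of all distal positions, 1.46% were nearest to a list gene, and so were 32 members (2.82%, 1.93 to 3.95%). The same share was 2.44% (2.00 to 2.95%) at PU.1-only, 2.27% at BATF summits near a control, 1.92% at BATF with PU.1 and 1.40% at Input-only summits, so the intervals of the antibody sets overlapped.

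No T helper cytokine gene was nearest to a member (0 of 28), and 3 had one within 100000 bp. A member with score 5.22 lay 39724 bp from the start of Il17f and 99436 bp from that of Il17a, and one with score 2.06 lay 99461 bp from Il22. For the cytokines of the study the nearest member was 1613390 bp away at Il9, 1945145 bp at Il4 and 230009 bp at Il21. The last is the AAAG repeat with score 8.49 whose window is printed above, and it is closer to Spata5. The study reports BATF together with PU.1 at the promoters of Il9 and Il21. The rule leaves out BATF summits close to a transcript start or to a PU.1 summit, so shared promoter sites could not be members. The distances to Il9 and Il21 therefore do not show whether BATF lies at these promoters.

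Of the cytokine receptor genes, 6 of 32 were nearest to a member and 11 had one within 100000 bp, where neighbouring genes could share a member. The 6 members nearest to them were 0.528% (0.194 to 1.15%) of all members, and 0.127% of distal positions were nearest to these genes. The share was 0.426% (0.0517 to 1.53%) at BATF with PU.1 and 0.230% (0.110 to 0.423%) at PU.1-only summits, with overlapping intervals. In the other lists the share of distal positions lay inside the interval of the members. Differences between the lists were not tested. An AC repeat (7.39) lay 11276 bp from the start of Ifnar2, a subunit of the type I interferon receptor, and 44728 bp from Il10rb. An AAG repeat (6.81) lay in an intron of Il18r1, 18458 bp from the start of Il18rap, whose products form the IL-18 receptor. Members also lay 4408 bp from Il10ra (4.37), 168327 bp from Tgfbr2 (4.94), which codes for a receptor of the TGF-β given to these cultures, and 77405 bp from Il9r (4.21), the receptor of IL-9.

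Among genes of the AP-1 and BATF family, 2 of 23 were nearest to a member, and 2 had one within 100000 bp. The intronic Jdp2 member (6.28), printed above, lay 10946 bp from the Jdp2 start and 73501 bp from that of Batf. The other lay 150612 bp upstream of Maf (5.22), an AAAG repeat that also held a PU.1 sequence. In the list of IRF and ETS factors, 1 of 24 genes was nearest, namely Erg with 3 members (5.59, 5.22 and 3.56), and 3 had one within 100000 bp. For Irf4, Irf8 and Spi1, which codes for PU.1, the nearest member was 1983835, 194987 and 1006960 bp away.

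Lineage and signalling factors had 10 of 50 genes nearest to a member and 7 of 50 within 100000 bp, so some nearest members were far. The 13 members nearest to this list were 1.14% (0.611 to 1.95%) of all members. Of distal positions 0.650% were nearest to it, which lies inside that interval, and of PU.1-only summits 1.06%. Prdm1, which codes for Blimp-1, had an ACAT repeat 51885 bp away (7.39). An AC repeat lay in Smad3 (3.41), a carrier of the TGF-β signal, 12030 bp from its start, and an AG repeat in Nfkb1 (3.73), 8566 bp from its start. An AC repeat lay 35726 bp from Eomes (4.05), a T-box factor. Members nearest to the list of T cell receptor signalling and costimulation were 0.528% (0.194 to 1.15%), and 0.259% of distal positions were. In this list, 5 of 45 genes were nearest and 11 of 45 within 100000 bp. They included Ctla4, an inhibitory receptor, with an intronic ACAG repeat (6.28), Fyn, a kinase of the receptor (6.90, AC), Cd44, an adhesion receptor (4.75, AC, 9627 bp from its start), and Zap70, another kinase of the receptor (3.26, an intronic ACAG repeat). Among homing receptors, 2 of 24 genes were nearest, among them Cxcr4 (4.21), and 3 had a member within 100000 bp.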

How the data were processed

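Each of the 5 libraries came as a list of summits 1 bp wide with a score from a peak caller, as the authors deposited it. The score's meaning is not given in the sources used here. The submitters' processing notes name Bowtie2 and mm10, and the study's methods name Bowtie, MACS for conversion and FindPeaks, while the summit names are of the MACS2 style. The caller's control, thresholds and treatment of reads with several origins are not given in the sources used here and could set which repeats are listed. The score was used only to rank or filter members.

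Summit positions (1-based) were joined to GENCODE M21 starts and read from GRCm38.p6, whose lower-case bases are masked. Both strands of 200 bp windows were searched for motifs. Genes were named by rule: the 10 highest scores, the members with AP-1, up to 6 per gene list, the 3 highest per sequence class, and genes with at least 3 members. GC-rich members beyond these, and the sequences printed, were chosen after their values were seen. Members and lists were chosen with earlier results of these data known. Shares of distal positions nearest to list genes used positions every 500 bp. With 1 library per antibody no test was made. Functions were tested on simulated data. Alternatives covered the distances of the rule, the score, the windows, the motif, the repeat threshold and the gene set. Python 3.11.15, numpy 2.4.6, pandas 2.3.3, scipy 1.17.1, pysam 0.24.0 and matplotlib 3.10.9 were used. Some members and sequences are not reported here.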

Additional observations from a re-analysis of the deposited data

How the results depend on the processing

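Of 36 values recomputed under alternatives, 27 stayed within the 95% interval (shares) or 1.5 times (counts) of the value reported. Distances of over 5000 bp from starts, protein-coding starts only and exclusion distances of 200 or 1000 bp gave between 891 and 1243 members, and a score above the median of the BATF list left 304. The share in simple repeats was 65.1% above that score, 53.3% in windows of 400 bp and 41.7% when over 60% of the bases had to be equal. The AP-1 share was 0.264% in windows of 100 bp and 2.11% in windows of 400 bp. It was 0 of the 79 members with at most 50% of the window masked, which allows up to 4.56%. The share inside genes was 44.1% beyond 5000 bp from starts and 39.2% with protein-coding genes only.

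No paired analysis was possible because each antibody has 1 library, and likewise none was left out. The depth of the libraries is unknown, so how many summits a deeper library would list cannot be said. Neighbouring summits and copies of 1 repeat are not independent.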
